A study of Mus musculus with 235 samples.

Results

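The core circadian clock genes were followed in mouse brain 4 h after the synthetic glucocorticoid dexamethasone. The genes are Per1, Per2, Per3, Cry1, Cry2, Arntl (which encodes BMAL1), Clock, Nr1d1, Nr1d2 and Dbp. They were taken by name as 10 rows of a count table of 27998 genes, and all 10 were found. The question was whether the response of Per1 stood apart from that of the rest of the clock. Adult male C57Bl/6 mice aged 3 months were group-housed in a 12-hour light-dark cycle. Of these, 15 were injected intraperitoneally with dexamethasone at 10 mg/kg and 15 with saline as vehicle. The labels name no transgene or mutation, and the clock time of injection is not given in the sources used here. Punches of frozen coronal sections gave up to 8 libraries per animal, labelled PFC, AMY, PVN, CER, dCA1, vCA1, dDG and vDG, with 13 to 15 animals per region and arm and 235 libraries in all. The region names are used as the labels write them.

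The circadian clock of mammalian cells is a feedback loop of transcription. CLOCK and BMAL1 bind E-boxes and switch on the Per and Cry genes, whose proteins return to the nucleus and inhibit that activation. They also switch on Nr1d1 and Nr1d2, which encode the nuclear receptors REV-ERB alpha and beta that repress Arntl, and Dbp, an activator that works through D-boxes. Most brain regions carry such a clock and are kept in phase by the suprachiasmatic nucleus, in part through the daily rhythm of glucocorticoids. Per1 is also a known direct target of the glucocorticoid receptor.

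Promoter sequences are shown for the 4 genes that passed the test over all regions together, to show where the letters of an E-box or a D-box, the motifs that clock proteins bind, occur near a start and where they do not. They are RefSeq sequences on GRCm38.p6, which has the coordinates of the mm10 build named in the submitters' processing notes. Each runs 5' to 3' on the gene's strand up to a start annotated by RefSeq, without bases that GENCODE places in an exon of that gene. The start used for Per1 lies 3732 bases inside the gene as counted, and RefSeq has a further Per1 start 4935 bases inside it. Capitals mark the E-box CACGTG, its variant CACGTT (read on the other strand as AACGTG) and the D-box TTATGTAA.
Per1, chr11:69098699-69098947, plus strand: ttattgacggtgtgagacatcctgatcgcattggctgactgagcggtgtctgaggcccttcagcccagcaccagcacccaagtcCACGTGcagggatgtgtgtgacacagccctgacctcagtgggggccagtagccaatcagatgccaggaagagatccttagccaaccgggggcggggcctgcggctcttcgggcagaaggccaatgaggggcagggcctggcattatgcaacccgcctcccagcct
Per3, chr4:151044666-151044915, minus strand: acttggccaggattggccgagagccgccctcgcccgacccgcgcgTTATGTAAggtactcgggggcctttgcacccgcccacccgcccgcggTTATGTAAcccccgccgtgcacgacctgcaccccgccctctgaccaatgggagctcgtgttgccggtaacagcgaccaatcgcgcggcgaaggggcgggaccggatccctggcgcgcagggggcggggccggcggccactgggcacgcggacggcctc
Nr1d1, chr11:98775378-98775627, minus strand: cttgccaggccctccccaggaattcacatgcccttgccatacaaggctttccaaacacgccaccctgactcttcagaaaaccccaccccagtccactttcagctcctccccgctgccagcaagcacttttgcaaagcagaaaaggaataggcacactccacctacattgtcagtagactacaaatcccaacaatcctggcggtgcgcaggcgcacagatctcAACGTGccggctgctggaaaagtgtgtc
Dbp, chr7:45704997-45705087, plus strand: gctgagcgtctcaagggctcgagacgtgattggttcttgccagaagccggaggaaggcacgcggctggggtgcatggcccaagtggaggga

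The E-box of the Per1 stretch began 166 bases before the start, and the variant in Nr1d1 28 bases before it. Per3 held 2 D-boxes, 205 and 158 bases before its start, and no E-box. Dbp held none of these motifs in its window, and neither did the window before the other Per1 start. Of the 10 genes, 9 had such a window of 250 bases in the table, with 13 windows between them. Besides Per1, the exact E-box was found in Cry1, 60 bases before the start, and the variant in Cry1 and Cry2. Among all 32851 promoter windows of that length, 6.02% held CACGTG, 3.85% the variant and 0.819% the D-box, on either strand. A full glucocorticoid response element, read as AGAACA and TGTTCT with any 3 bases between them and searched on both strands, was in none of the 13 windows and in 3 of the 32851. These are matches of letters within a short window and say nothing of more distant sites.

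All 10 genes had counts above 0 in all 235 libraries, and all passed the filter on low counts in every region. Counts were low, with a median per library from 12 for Cry1 to 111 for Clock, so a single library gives an imprecise value. Library totals ran from 268538 to 1451422 counts. Levels are given as CPM, counts per 1000000 of a library's total after scaling, and are compared between samples of a gene, not between genes. Exons of Dbp share 539 bases (32.1% of its exon bases) with Sphk2 on the other strand, and exons of Nr1d1 share 263 bases (8.55%) with Thra on the other strand. Whether counting used strand is not given in the sources used here, so reads in the shared bases could come from either gene. Over all libraries Thra had 162412 counts against 8125 for Nr1d1, and Sphk2 had 5174 against 7895 for Dbp. The share of exon bases does not give the share of reads, as the libraries were made with a 3' kit. Neither Thra nor Sphk2 passed the test in any region. The glucocorticoid-induced genes Fkbp5 and Tsc22d3 were higher after dexamethasone past the threshold in all 8 regions, with log2 fold changes of 1.65 to 2.79 and of 0.85 to 1.39.

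The region labels did not all match their markers in vehicle libraries. Gabra6, which defines cerebellar granule cells, had a median of 0 CPM in CER, as in every other region, and Barhl1 a median of 1.75 CPM there. Prox1, a marker of dentate granule cells, had a higher median in dCA1 (533 CPM) than in dDG (425 CPM) or vDG (196 CPM). Sim1, which marks neurons of the paraventricular hypothalamus, had a median of 13.4 CPM in PVN and of 0 in the other regions. Dsp and Lct, 2 further dentate markers, had medians of 94.5 and 34.3 CPM in dDG but of 10.5 and 2.78 CPM in vDG. The cells sampled may therefore not be those the labels name, and CER, dCA1, dDG and vDG are used below as labels of libraries.

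Over the 8 regions together, dexamethasone raised Per1 and Per3 and lowered Nr1d1 and Dbp. The counts of each animal were summed over its regions, for the 13 vehicle and 13 dexamethasone animals that had all 8. Of the 10 clock genes, 4 passed an adjusted p of 0.05 in edgeR's quasi-likelihood test, against 18.6% of the 13375 genes tested (9.74% higher and 8.82% lower). The changes were all smaller than 2-fold on the linear scale. Per2, Cry1, Cry2, Arntl, Clock and Nr1d2 did not pass. The median log2 fold change of the 10 was 0.01, against -0.01 over all genes tested.

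**Figure D1:**
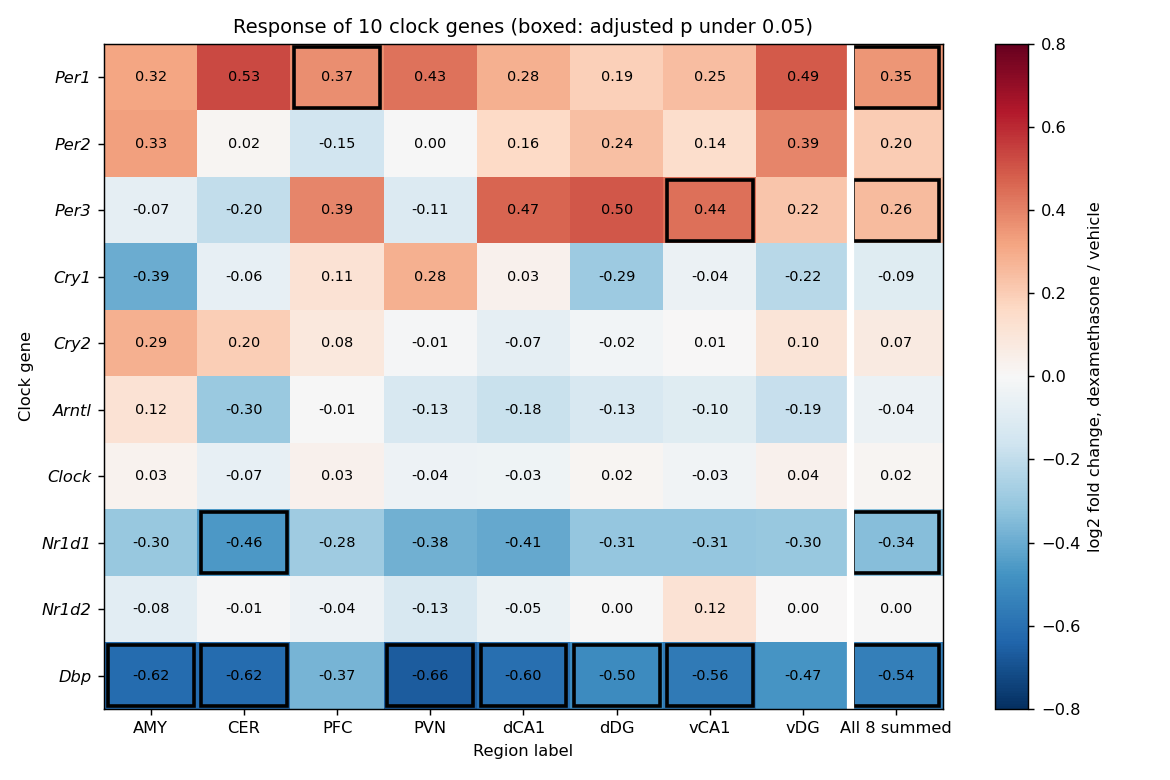
Log2 fold change (dexamethasone over vehicle) of the 10 clock genes, in rows, in each of the 8 regions and for counts summed over the regions, in columns. Boxes mark an adjusted p under 0.05. Per1 is positive and Nr1d1 and Dbp are negative in all 8 regions, whereas Per3 changes sign between regions.

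Dbp gave the largest change among the 10. It is an output gene of the clock, driven by CLOCK and BMAL1. The summed level ran from 44.6 to 76.2 CPM in vehicle animals, with a median of 51.2 CPM, and from 28.8 to 50.5 CPM after dexamethasone, with a median of 36.4 CPM. The 2 arms overlapped through 1 dexamethasone animal, and the other 12 lay below every vehicle animal. The log2 fold change was -0.54 ± 0.08 (SE), an expression of 0.686 times that of vehicle, with an adjusted p of 2.70e-06.

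Nr1d1 encodes REV-ERB alpha, a repressor that closes a second loop of the clock. Its summed level was 41.6 to 58.4 CPM in vehicle animals (median 53.3 CPM) and 37.7 to 46.6 CPM after dexamethasone (median 40.1 CPM). All 13 dexamethasone animals lay below the vehicle median and 9 below every vehicle animal. The log2 fold change was -0.34 ± 0.04 (SE), with an adjusted p of 8.35e-08. For its relative Nr1d2 the value was -0.003 ± 0.05 (SE), and the adjusted p 0.982.

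Per1 and Per3 encode period proteins, which inhibit CLOCK and BMAL1. Per1 ran from 21.2 to 42.2 CPM in vehicle animals (median 30.8 CPM) and from 29.4 to 42.7 CPM after dexamethasone (median 39.4 CPM). The arms overlapped over most of their range, with 12 of 13 dexamethasone animals above the vehicle median. The log2 fold change was 0.35 ± 0.07 (SE), a 1.28-fold level, with an adjusted p of 4.13e-04. Per3 ran from 82.9 to 135.6 CPM in vehicle animals (median 109.7 CPM) and from 99.9 to 153.7 CPM after dexamethasone (median 125.6 CPM), and 12 of 13 were above the vehicle median. Its log2 fold change was 0.26 ± 0.06 (SE), with an adjusted p of 0.00275.

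For Per2, the remaining period gene, the estimate was 0.20 ± 0.09 (log2, SE) and the adjusted p 0.114. With the date of punching as a factor the value was 0.19 and the adjusted p 0.00421, so that Per2 then passed the threshold. With sums over the regions present in each of all 30 animals it was 0.13 ± 0.09 (SE) and the adjusted p 0.403. The 30 include dexamethasone replicate 4, which has a low Per2 and does not have all 8 regions. The other inhibitors, the cryptochrome genes, had log2 fold changes of -0.09 ± 0.07 (Cry1, adjusted p 0.431) and 0.07 ± 0.04 (Cry2, adjusted p 0.238). The activators of the loop had -0.04 ± 0.06 (Arntl, adjusted p 0.690) and 0.02 ± 0.04 (Clock, adjusted p 0.822). The standard errors of all 6 were below 0.1 on the log2 scale.

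In single regions, 9 of the 80 tests of a clock gene passed, 2 with a higher and 7 with a lower level after dexamethasone. Of the 10 genes, 1 passed in AMY, and it was Dbp, against 5.62% of all genes tested there (3.54% higher, 2.08% lower). Dbp was also the 1 gene that passed in PVN (background 5.63%, with 3.57% higher and 2.06% lower), in dCA1 (4.68%, with 2.57% higher and 2.11% lower) and in dDG (3.7%, with 2.33% higher and 1.37% lower). In CER 2 of 10 passed, Nr1d1 and Dbp, against 6.18% (3.9% higher, 2.28% lower). In PFC 1 passed, Per1, against 6.14% (3.86% higher, 2.28% lower). In vCA1 2 passed, Per3 and Dbp, against 5.45% (3.41% higher, 2.04% lower). In vDG none of the 10 passed in edgeR, against 3.93% (2.64% higher, 1.29% lower). DESeq2 also called 0 in vDG. There 4 had an unadjusted p under 0.05, and in each other region 3 or 4 did. The share of all genes at that unadjusted level is not given here, so these counts have no background. With punching date and plate as factors Dbp passed in vDG too, and 3 clock genes passed in each of PFC and CER, 2 in each of PVN, AMY, vCA1 and dDG, and 1 in each of vDG and dCA1. The shares above come from the fit without these factors and are no background for the counts with them. Most counts of 1 gene in 10 are near what the background gives.

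**Figure D2:**
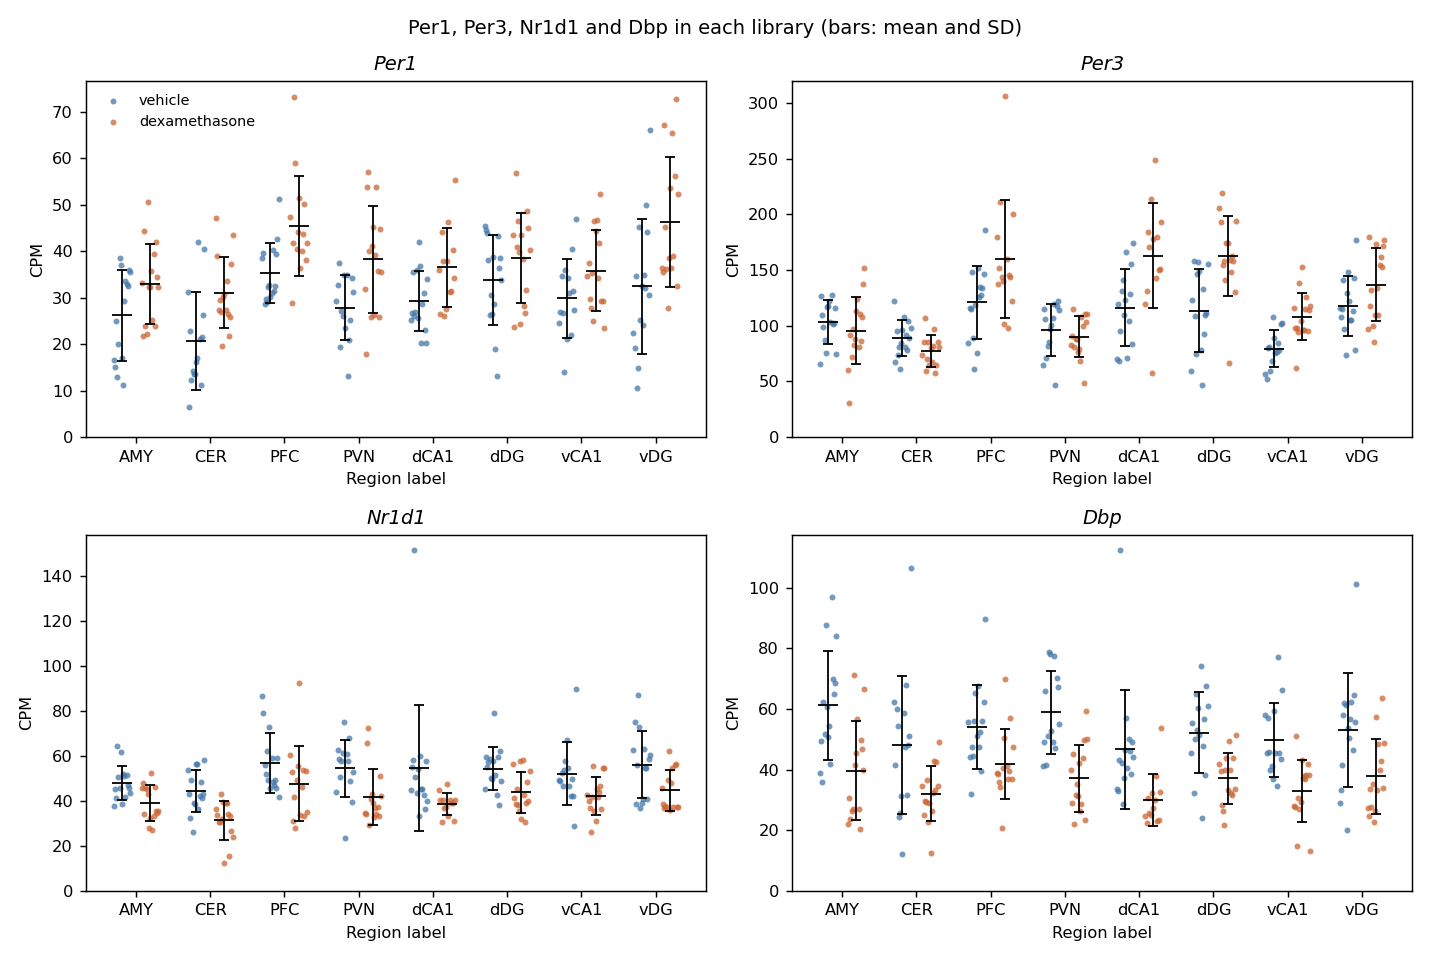
CPM of Per1, Per3, Nr1d1 and Dbp (vertical axes) in each library of the 8 regions (horizontal axes), with vehicle in blue and dexamethasone in orange. Points are libraries, 13 to 15 per group, and bars give the mean and SD. The arms overlap in every panel and region, and in dCA1 a single vehicle library reaches 151 CPM of Nr1d1 and 112 CPM of Dbp.

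Dbp had negative estimates in 8 of 8 regions, with log2 fold changes from -0.66 in PVN to -0.37 in PFC, and passed in 6. In PVN it ran from 41.1 to 78.7 CPM in vehicle libraries (median 53.9 CPM) and from 22.0 to 59.4 CPM after dexamethasone (median 35.3 CPM). Of the 15 dexamethasone libraries of PVN, 9 lay below every vehicle library. The change there was -0.66 ± 0.13 (SE, adjusted p 2.99e-04).
In AMY, CER and dCA1 the log2 fold change was between -0.62 and -0.60, and in dDG and vCA1 -0.50 and -0.56. In dDG all 15 dexamethasone libraries were below the vehicle median. PFC (-0.37 ± 0.13, adjusted p 0.0750) and vDG (-0.47 ± 0.17, adjusted p 0.168) did not pass. In CER the call was lost without dexamethasone replicate 6 or without vehicle replicate 15, with an adjusted p of up to 0.0720. Within dates of punching the difference was negative in all 32 combinations of a region and a date that could be formed, and within library plates in 31 of 32. The regions come from the same animals, so the 32 combinations are not separate replications.

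Nr1d1 had negative estimates throughout, and passed the adjusted threshold in CER. Its unadjusted p was below 0.05 in each of the 8 regions. Its log2 fold changes lay between -0.46 and -0.28. In CER the vehicle libraries ran from 26.3 to 58.3 CPM (median 42.8 CPM) and the dexamethasone libraries from 12.4 to 43.2 CPM (median 33.2 CPM). All but 1 of the 15 dexamethasone libraries were below the vehicle median, and the change was -0.46 ± 0.13 (SE, adjusted p 0.0205).
In dCA1 the vehicle group held the library with 151 CPM of Nr1d1, from 35 counts, which is not among the 228 libraries of the deposited variance-stabilised tables. The log2 fold change of Nr1d1 in dCA1 was -0.41 with it and -0.30 in the fit on those libraries, and that of Dbp -0.60 and -0.51. Dbp passed the threshold in dCA1 both ways.

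Per1 had positive estimates in 8 of 8 regions, with log2 fold changes from 0.19 in dDG to 0.53 in CER. It passed in PFC, where vehicle libraries ran from 28.7 to 51.2 CPM (median 32.4 CPM) and dexamethasone libraries from 28.9 to 73.3 CPM (median 42.8 CPM). Of the 14 dexamethasone libraries 13 were above the vehicle median, and the change was 0.37 ± 0.11 (SE, adjusted p 0.0359).
The PFC call of Per1 was close to the threshold. With upper-quartile factors, and with the replicate number as a block, Per1 did not pass there (adjusted p up to 0.0523). The call was also lost in 11 of the 29 fits that left out 1 library, with log2 fold changes of 0.30 to 0.42 and an adjusted p of up to 0.0971. Those libraries were vehicle replicates 3, 4, 5, 7, 8, 9, 11 and 12 and dexamethasone replicates 5, 6 and 13.
In CER the estimate of Per1 was larger but more variable. Vehicle libraries ran from 6.39 to 41.9 CPM (median 17.1 CPM) and dexamethasone libraries from 19.6 to 47.2 CPM (median 29.5 CPM), all 15 of them above the vehicle median, and the change was 0.53 ± 0.18 (SE, adjusted p 0.0868). With punching date and plate as factors Per1 passed in 3 regions and Dbp in all 8.

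Per3 behaved differently from region to region. Its log2 fold change was highest in dDG (0.50), then dCA1 (0.47), vCA1 (0.44), PFC (0.39) and vDG (0.22), but -0.07 in AMY, -0.20 in CER and -0.11 in PVN. It passed in vCA1 in edgeR's test without further terms. It did not pass there with the level of dentate markers as a covariate (0.29, adjusted p 0.311), as given below. With date and plate as factors it passed in vCA1, dDG (0.53, adjusted p 0.0135) and PFC (0.39, adjusted p 0.0230), and with DESeq2 in vCA1 and dDG (0.50, adjusted p 0.0303). In vCA1 the vehicle libraries ran from 52.4 to 107.5 CPM (median 79.0 CPM) and the dexamethasone libraries from 62.3 to 152.4 CPM (median 103.9 CPM). Of 15 dexamethasone libraries 14 were above the vehicle median, and the adjusted p was 0.00771.
In PFC, dexamethasone replicate 9 reached 306 CPM of Per3 from 149 counts, and it is not among the libraries of the variance-stabilised tables either.
In dDG, 8 of 15 dexamethasone libraries lay above every vehicle library, and the change of 0.50 ± 0.15 had an adjusted p of 0.0501. In CER, 13 of 15 dexamethasone libraries were below the vehicle median of 89.0 CPM, and the change of -0.20 ± 0.10 had an adjusted p of 0.377.
Per3 was the clock gene whose response differed among the 8 regions. The 7 region-by-treatment terms gave F = 5.11 in a fit with the animal as a block (adjusted p 0.00372), against 1.27% of 11053 genes called. Of the 28 pairs of regions, 1 passed for Per3, with a response that was 0.74 ± 0.19 lower in CER than in dDG on the log2 scale (adjusted p 0.0214, background 0.679%). The other 9 clock genes did not pass this test, with adjusted p-values from 0.550 (Cry2) to 1.000, which does not show that their responses were equal.

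The other 6 clock genes passed in no single region in edgeR. Their unadjusted p was under 0.05 in 2 regions for Cry2 and in 1 each for Per2 and Cry1, and DESeq2 called Cry2 in 1 region. Cry2, a cryptochrome gene, came closest, in AMY, where vehicle libraries ran from 68.4 to 113.5 CPM (median 85.2 CPM) and dexamethasone libraries from 64.7 to 130.2 CPM (median 106.2 CPM). The arms overlapped, with 13 of 15 dexamethasone libraries above the vehicle median, and the change was 0.29 ± 0.09 (SE, adjusted p 0.0508). Cry2 passed in AMY with DESeq2 (adjusted p 0.0288) and with date and plate as factors (adjusted p 0.0255), and its adjusted p ran from 0.0255 to 0.0811 over the alternatives that kept every animal or the deposited set. In the other regions the log2 fold change of Cry2 lay between -0.07 and 0.20. Those of Per2 lay between -0.15 (PFC) and 0.39 (vDG), of Cry1 between -0.39 (AMY) and 0.28 (PVN) and of Arntl between -0.30 (CER) and 0.12 (AMY). Clock, at -0.07 to 0.04, and Nr1d2, at -0.13 to 0.12, had the narrowest ranges of these 6.

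Cell type markers moved with some of these results. In vCA1, 2 of the 4 dentate granule cell markers tested were higher after dexamethasone past the threshold. The summed level of all 7 dentate markers there ran from 121 to 344 CPM in vehicle and from 132 to 856 CPM in dexamethasone libraries. With the mean level of the dentate list as a covariate, Per3 in vCA1 was at 0.29 ± 0.12 (log2, adjusted p 0.311) and no longer passed, while Dbp stayed past the threshold at -0.60 (adjusted p 0.0247). With the same covariate Per3 passed in dCA1 (0.53, adjusted p 0.0205) and in dDG (0.50, adjusted p 0.0259), and Nr1d1 in dCA1 (-0.51, adjusted p 0.0166). Of the 5 endothelial markers 4 were tested, of which 2 were lower in every region, and the median of their summed level was lower after dexamethasone by 0.38 to 0.63 on the log2 scale. Of 5 neuronal markers none passed in any region in edgeR. Other lists moved in single regions. The summed median of the PVN list in PVN was 246 CPM in vehicle (range 34.3 to 2136) and 886 CPM in dexamethasone libraries (13.3 to 2873), with 0 of 5 markers past the threshold. That of the choroid plexus list in dDG was 1303 CPM in vehicle (45.5 to 11764) and 280 CPM in dexamethasone libraries (46.1 to 13461), with 0 of 2 tested. The oligodendrocyte median was lower by 0.51 in dDG and 0.43 in vCA1 on the log2 scale, with no marker past the threshold there. Past it were 1 oligodendrocyte marker in AMY, 1 astrocyte marker in dCA1 and 1 choroid plexus marker in vCA1, each lower. Of the amygdala list, 1 marker was higher and 1 lower in PFC and in vCA1, and 1 was lower in dCA1. Of the microglial markers 1, P2ry12, was lower in every region, and the median of their summed level was lower by 0.08 to 0.37. Prox1 was lower in AMY, CER and PVN and Plk5, another dentate marker, in dCA1, where the summed dentate median was 1206 CPM in vehicle and 866 CPM in dexamethasone libraries. The part of these cells and tissues in the other changes of the clock genes was not tested, and in such tissue fewer cells of a type and less RNA per cell cannot be told apart.

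The change of Per1 was set directly against that of each other clock gene. For every animal the log2 CPM of Per1 minus that of the other gene was averaged over its regions, as a deviation from the region's mean, and the 15 animals of each arm were compared. The ratio was higher after dexamethasone for all 9 genes. The differences, in log2 units, were 0.90 against Dbp, 0.71 against Nr1d1, 0.50 against Arntl, 0.46 against Cry1, 0.42 against Nr1d2, 0.39 against Clock, 0.31 against Cry2, 0.29 against Per2 and 0.18 against Per3.
For Dbp, the ratio averaged 0.46 (SD 0.21) in the 15 dexamethasone animals and -0.45 (SD 0.29) in the 15 vehicle animals, and all 15 dexamethasone animals were above the vehicle median. Its permutation p was 2e-05, the smallest that 100000 two-sided permutations can give, and 4.5e-05 after Benjamini-Hochberg adjustment over the 9 ratios. The adjusted permutation p was 0.00882 for Per2 and 0.0270 for Per3, and from 4.5e-05 to 5.91e-04 for the others.
The ratios to Per2 and Per3 rested on the choice of animals. With the animals that had all 8 regions, the difference was 0.20 against Per2 (adjusted permutation p 0.0562) and 0.16 against Per3 (adjusted permutation p 0.0770). With counts summed before the ratio it was 0.16 against Per2 (adjusted permutation p 0.144) and 0.10 against Per3 (adjusted permutation p 0.262). The other 7 ratios passed both ways.

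**Figure D3:**
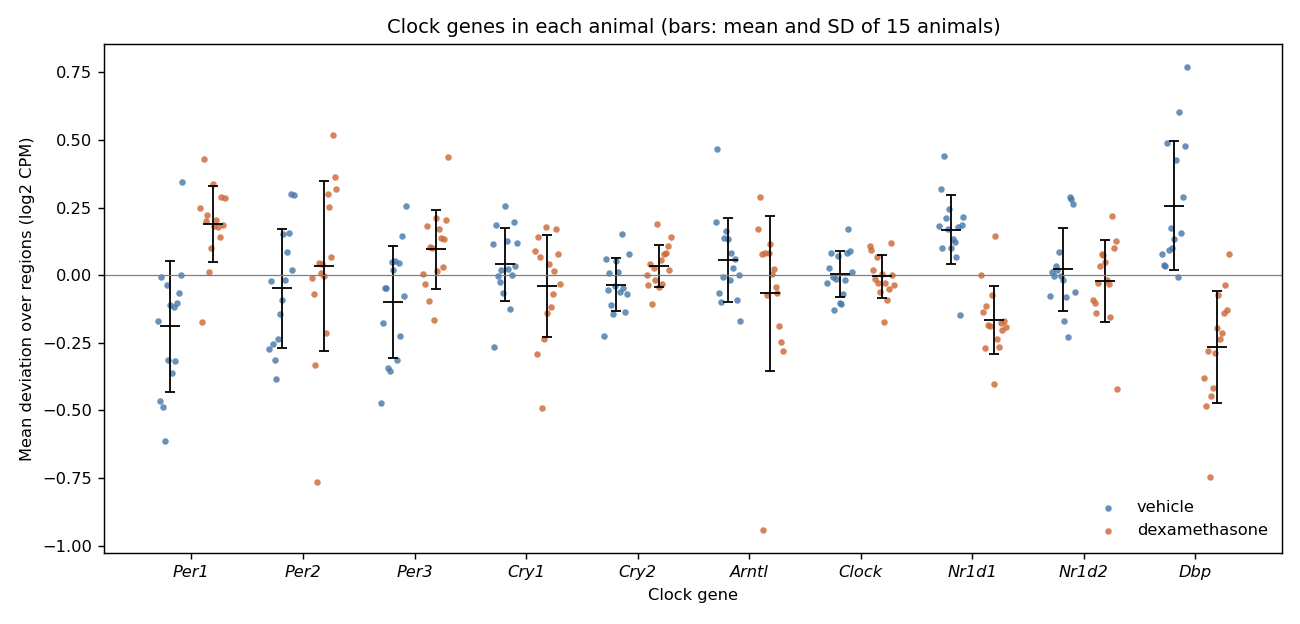
Mean deviation over regions, in log2 CPM, of each clock gene (horizontal axis) in each of 15 vehicle animals (blue) and 15 dexamethasone animals (orange), with the mean and SD of each arm. For Dbp 14 of 15 dexamethasone animals lie below every vehicle animal, and for Nr1d1 10 of 15.

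By the same animal-level measure, which uses all 30 animals, Dbp averaged -0.27 (SD 0.21) in the 15 dexamethasone animals and 0.26 (SD 0.24) in the 15 vehicle animals. The 1 dexamethasone animal within the vehicle range was replicate 15, at 0.08. Per1 was 0.19 ± 0.14 and -0.19 ± 0.24 (SD, n = 15 each), with 14 of 15 dexamethasone animals above the vehicle median. Dexamethasone replicate 4 stood apart in Arntl, at -0.94 where the next lowest of its arm was -0.28. It also had the lowest Per2 (-0.76) and the lowest Dbp (-0.75) of its arm, whereas its Per1, at 0.20, was close to the arm's mean.

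The spread between animals of the same arm was described as a share of variance. After the means of region and arm were removed, differences between animals took 27.7% of the variance of Per2, 14.4% of that of Dbp and 11.9% of that of Per1. The median over the 7924 genes tested in all regions was 2.07%. For Clock (0.187%), Cry1 (0.936%) and Nr1d1 the share was below that median. These shares describe the spread within the arms and were not tested.

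**Figure D4:**
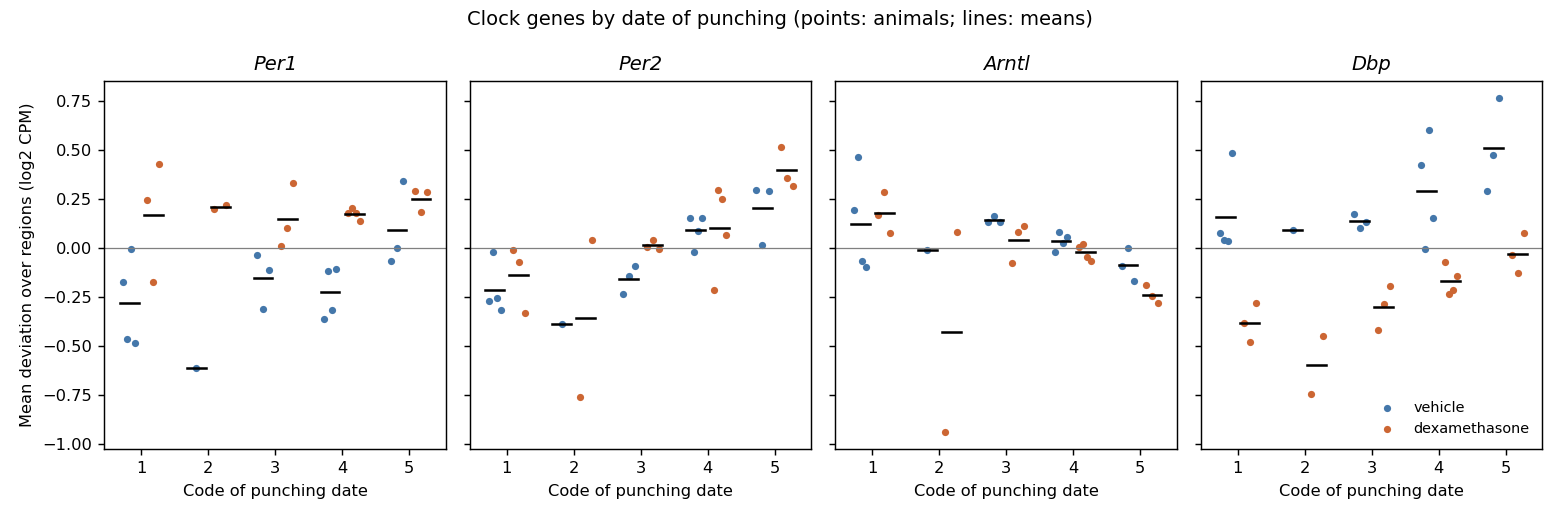
Mean deviation over regions, in log2 CPM, of Per1, Per2, Arntl and Dbp (panels) in each animal by the code of its date of punching, with vehicle in blue, dexamethasone in orange and lines at the means. Per2 is highest on date 5 in both arms, the low dexamethasone mean of date 2 comes from 1 of 2 animals, and Dbp is lower after dexamethasone on each of the 5 dates.

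The animals fell on 5 dates of punching, a date the labels give for taking punches from the frozen brain and not for injection. With the mean of each arm removed, the date took 63.5% of the variance between animals for Per2, 53.3% for Dbp and 37.7% for Arntl. These 3 of 10 passed a permutation test within arms, with adjusted p-values of 2.0e-04, 0.00225 and 0.0416. Over all 7924 genes the median share was 20.6%, and 0.543% of genes had a higher share than Per2, 2.74% than Dbp and 14.1% than Arntl. The results for Per2 and Dbp passed when any 1 of the 30 animals was left out, and that for Arntl in 9 of 30 such tests, with an adjusted p of up to 0.0864.
Per2 had a mean of -0.39 in the vehicle animal and -0.36 in the dexamethasone animals of date 2, and of 0.20 and 0.40 in those of date 5. The low dexamethasone mean of date 2 rests on replicate 4, at -0.76, since the other animal, replicate 5, was at 0.04. Dbp in vehicle animals had means of 0.09 on date 2 and 0.51 on date 5, and in dexamethasone animals of -0.60 and -0.03. The difference between the arms kept its sign on every date all the same, at -0.69 to -0.44 for Dbp, -0.39 to -0.26 for Nr1d1, 0.16 to 0.83 for Per1 and 0.14 to 0.35 for Per3.
Date 2 held 1 vehicle animal and 2 dexamethasone animals, so its difference has little behind it. In the labels 1 researcher code falls on date 5 alone and 1 cryostat code on date 1 alone, and the animal numbers rise with the date. These cannot be told apart from the dates, and which property of the dates moved with the clock genes was not tested.

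Pairs of clock genes were compared over the 30 animals with the arm's mean removed, which gave 45 relations. Of these, 4 passed an adjusted permutation p of 0.05 with Pearson's r, and none did with Spearman's rho. These 4, 8.89% of the pairs, had r of 0.53 or more, as did 1.55% of all pairs of the 7924 genes. Per3 and Dbp had r = 0.63 (permutation p 2.8e-04, adjusted 0.0126) and rho = 0.57 (permutation p 0.00181, adjusted 0.0814). Without the 2 animals farthest from the median of Per3, r was 0.55, and with the means of the dates removed it was 0.48. Cry2 and Dbp had r = 0.58 (permutation p 0.00146, adjusted 0.0219) and rho = 0.49 (permutation p 0.00809, adjusted 0.0943), with r = 0.51 without the 2 farthest animals and 0.57 within dates.
Per2 and Dbp had r = 0.60 (permutation p 5.8e-04, adjusted 0.0131) and rho = 0.50 (permutation p 0.00542, adjusted 0.0943), and r = 0.45 without the 2 farthest animals. Within dates r was 0.04, so the relation of Per2 and Dbp did not hold there. Per2 and Per3 had r = 0.53 (permutation p 0.00195, adjusted 0.0219) and rho = 0.48 (permutation p 0.00871, adjusted 0.0943), with 0.55 without the 2 farthest and 0.25 within dates.

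Among single libraries, the 5 genes most like each of Per1, Dbp and Arntl, the clock genes for which this was computed, held no other clock gene. Over the 235 libraries, as deviations from the mean of region and arm, the highest Pearson correlations among 7924 genes were those of Per1 with Ppp1r12c (0.48), Adgrb1, Safb2, Adcy9 and Srrm2. For Dbp they were Dynlrb1 (0.52), Pcx, Cox4i1, Gnb2 and Mapk8ip1, and for Arntl Trim9 (0.48), Fbxl16, Wdr17, Ppp1r2 and Caap1. Libraries of an animal share that animal, and all genes of a library share its depth and RNA quality, so these values are a description of the libraries.

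The clock genes also differed between regions at rest. Among the 118 vehicle libraries, 7 of 10 differed among the 8 regions in edgeR's quasi-likelihood test with the animal as a block. The background in that test was 73.3% of 10451 genes, so a share of this size is that of genes at large. Clock (adjusted p 0.667), Nr1d1 (adjusted p 0.0860) and Dbp (adjusted p 0.0889) did not pass. The largest F statistics of the 10 were those of Cry2 (20.5), Per2 (11.4) and Arntl (10.5). The vehicle libraries of PFC also had a mean RNA integrity number of 7.75, against 5.91 (PVN) to 6.69 (vCA1) in the other regions. The test had no term for RNA integrity, and its part in the levels of PFC was not tested.

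**Figure D5:**
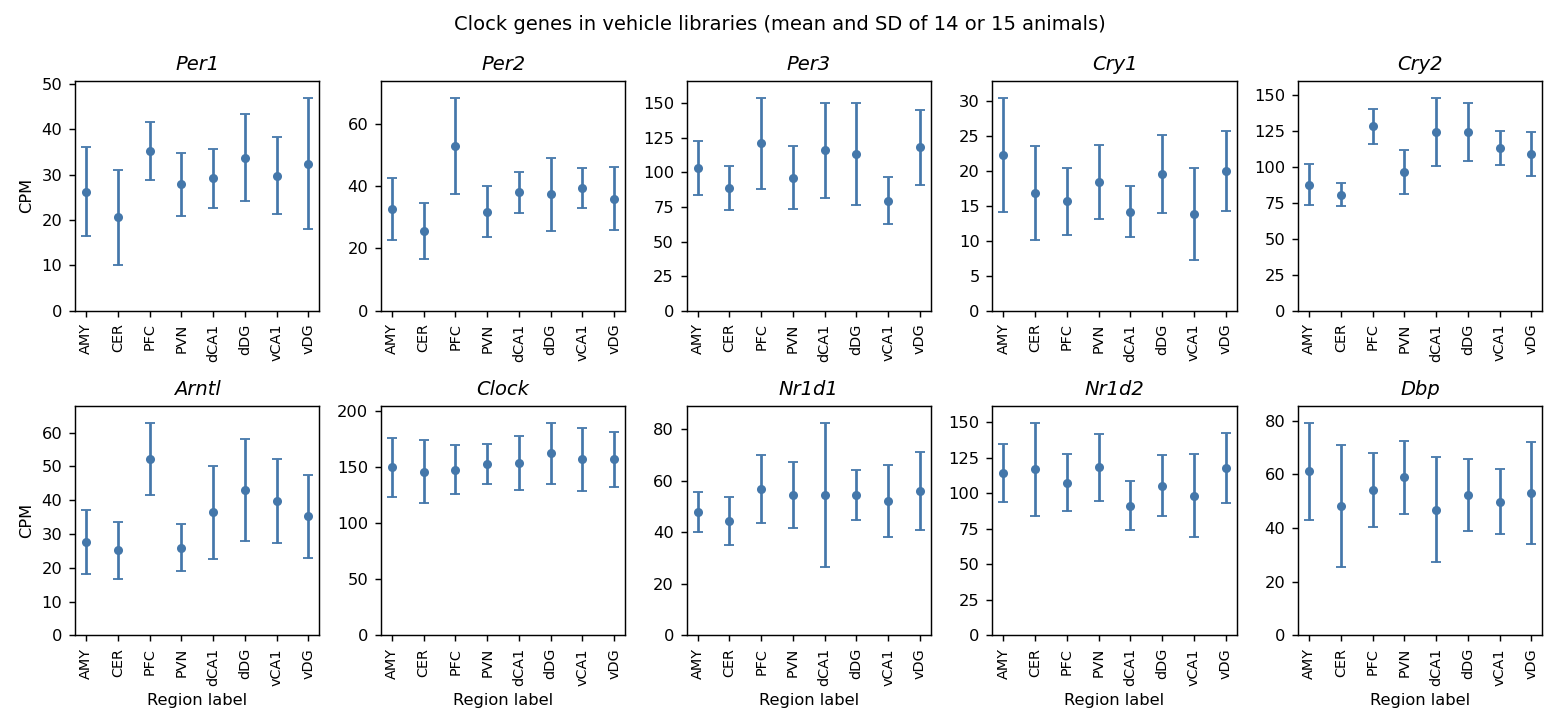
CPM (vertical axes, each from 0) of the 10 clock genes in vehicle libraries of the 8 regions (horizontal axes), as mean and SD of 14 or 15 animals. Per1, Per2, Per3, Cry2, Arntl and Nr1d1 have their highest mean in PFC.

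Per2 was highest in PFC, at 52.7 ± 15.4 CPM (SD, n = 15), followed by vCA1 at 39.4 ± 6.45 CPM (SD, n = 14). This step was smaller than the SD of PFC, but passed the test within animals, with a log2 difference of 0.41 ± 0.12 (SE) and an adjusted p of 0.0101. Below these came dCA1 (37.9 ± 6.65 CPM), dDG (37.3 ± 11.8 CPM), vDG (35.9 ± 10.1 CPM), AMY (32.5 ± 9.94 CPM), PVN (31.7 ± 8.22 CPM) and CER (25.6 ± 9.06 CPM). No other neighbours in that order differed past the threshold.
Arntl had its highest mean in PFC too, at 52.2 ± 10.8 CPM (SD, n = 15), and its lowest in CER, at 25.1 ± 8.50 CPM (SD, n = 15). Cry2 ran from 128.2 ± 12.4 CPM in PFC to 80.6 ± 7.95 CPM in CER (SD, n = 15 each). Per1 ran from 35.3 ± 6.41 CPM in PFC to 20.6 ± 10.5 CPM in CER, and Per3 from 121.0 ± 32.9 CPM in PFC to 79.5 ± 16.9 CPM in vCA1.
For the other clock genes no neighbours in the order of levels differed past the threshold, and the differences lay between regions further apart. The number of the 28 pairs of regions that passed was 16 for Cry2, 15 for Arntl, 12 for Per2, 10 for Per3 and 6 each for Per1 and Cry1. For Nr1d1 and Nr1d2 it was 4, for Dbp 2 and for Clock 0. The mean over the 10451 genes tested was 8.80 pairs, so 6 of the 10 genes were below genes at large. Clock was at 146 to 162 CPM in every region.

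Beyond the 10 genes, a list of 28 further clock genes was followed, with regulators of stability, nuclear receptors and D-box factors. Over the summed counts 26 were tested, of which 4 were higher and 2 lower after dexamethasone, against 18.6% of all genes tested (9.74% higher, 8.82% lower), so the count is near the background. Their median log2 fold change was -0.003, against -0.01 over all genes tested. On the log2 scale the D-box repressor Nfil3 was at 0.43 ± 0.11 (SE, adjusted p 0.00470), and Ciart, which encodes a repressor of CLOCK and BMAL1, at 0.44 ± 0.10 (adjusted p 0.00195). Both have low counts, since Nfil3 passed the low-count filter in no single region and Ciart in 1. Usp2, a deubiquitinase, was at 0.31 ± 0.07 (adjusted p 0.00109) and the D-box activator Tef at 0.15 ± 0.03 (adjusted p 2.66e-04). Rorb, a nuclear receptor of the ROR elements, was at -0.38 ± 0.05 (adjusted p 5.54e-08), and the E-box repressor Bhlhe41 (DEC2) at -0.23 ± 0.05 (adjusted p 2.11e-04).
In single regions 20 to 22 of the 28 were tested. Against a background of 3.7% to 6.18% of all genes, 0 to 4 passed per region. In AMY 2 were higher (Rora, Usp2) and 1 lower (Rorb), and in CER and in PVN Usp2 was higher and Bhlhe40 (DEC1) lower. In dCA1 and in dDG Bhlhe41 and Rorb were lower, and in vCA1 Rorb was. In vDG Rora and Usp2 were higher and Bhlhe41 and Rorb lower. In PFC none of 22 passed in edgeR, where 4 had an unadjusted p under 0.05 and DESeq2 called 1. In the other regions 4 to 7 had such an unadjusted p, and the share of all genes at that level is not given here. Rorb is also 1 of the 5 genes of the cortex marker list. In AMY, dDG, vCA1 and vDG it was the 1 cortex marker that passed, and in dCA1 Mef2c passed too (-0.59 ± 0.11, SE, adjusted p 2.4e-04). The summed median of the other 4 cortex markers was lower after dexamethasone in 7 regions, by 0.07 (PFC) to 0.35 (dCA1) on the log2 scale, and higher by 0.34 in vCA1. The part of cortical tissue in the values of Rorb was not tested. The lowest of the regional values was that of Bhlhe40 in PVN, at -0.83 ± 0.12 (SE, adjusted p 1.5e-06), and the highest that of Usp2 in AMY, at 0.59 ± 0.14 (SE, adjusted p 0.00555).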

How the data were processed

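Libraries were made with a 3' mRNA kit with unique molecular identifiers and sequenced single-end, per the labels' protocols. The submitters' processing notes name FastQC 0.11.4, cutadapt, UMI-tools 0.5.4, STAR 2.6.0a, featureCounts 1.6.4, DESeq2 1.30.1, R 4.0.5 and the build mm10. The annotation and the use of strand are not given in the sources used here. The authors deposited raw counts per gene for 235 libraries, and per the file headers variance-stabilised values on a log2 scale for 228 of them. The latter were used only to define an alternative set of libraries. Of 27998 gene IDs 27645 had a symbol.

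The 10 genes and all gene lists were chosen with earlier results of these data known. Counts were fitted across all genes per region with edgeR 4.0.16 (filterByExpr, TMM factors, quasi-likelihood test, limma 3.58.1, R 4.3.3), with Benjamini-Hochberg adjustment over all genes tested and a threshold of 0.05. Standard errors were derived from the fold change and F. Further fits used counts summed per animal, a region-by-treatment interaction and vehicle libraries alone, the last 2 with the animal as a block. Log2 CPM used a prior count of 2. Permutation tests drew 100000 two-sided resamples (scipy 1.17.1, numpy 2.4.6, pandas 2.3.3, Python 3.11.15), and figures used matplotlib 3.10.9. The fits were tested on simulated data. Libraries of a region and arm came from separate animals, and no pair of libraries looked like 1 library deposited in duplicate (smallest chi-square per degree of freedom 1.34). Library totals had a median of 742957 counts.

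Named were the 10 genes, those of 28 further clock genes that passed in a region or over all, Fkbp5 and Tsc22d3 for scale, genes whose exons overlap those of the 10, and the 5 genes most like Per1, Dbp and Arntl. Some cell type markers were named too, for the region labels or because they passed the threshold. Alternatives were DESeq2 1.42.0, upper-quartile factors, other filters, RNA integrity (RIN), date and plate, replicate number, the libraries of the variance-stabilised tables and leaving out each animal. The dentate covariate, the pairs of regions, the analysis of dates and the pairs of genes over animals were added after seeing the data.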

Additional observations from a re-analysis of the deposited data

Results flagged for a closer look

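The response to dexamethasone differed among the 8 regions by the interaction test for 3 of the genes named. For Per3 the adjusted p was 0.00372 (F = 5.11), with log2 fold changes from -0.20 in CER to 0.50 in dDG. For Bhlhe40, which encodes the E-box repressor DEC1, the adjusted p was 0.00032 (F = 6.33). Bhlhe40 had a log2 fold change of -0.83 ± 0.12 (SE) in PVN and -0.41 ± 0.12 in CER, and between -0.14 and 0.16 in the other 6 regions. For Fkbp5, which encodes a co-chaperone of the glucocorticoid receptor, the adjusted p was 4.34e-11 (F = 13.3). Fkbp5 passed in every region, with log2 fold changes of 1.65 ± 0.12 (SE) in dDG and 1.66 ± 0.12 in dCA1, and between 2.35 and 2.79 in the other 6 regions.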

How the results depend on the processing

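No result changed direction under any alternative, and 68 of 91 values of the counts of clock genes, and 179 of 187 of the other values, stayed within the spread or on the same side of the threshold. Over the regions together Per1, Per3, Nr1d1 and Dbp passed under every alternative, with 4 to 5 genes called when 1 animal was left out. In AMY the count of 1 became 2 with DESeq2, upper-quartile factors, the replicate block, and date and plate as factors, each time by Cry2. In CER the count of 2 became 3, with Per1, under the replicate block and with date and plate, and 0 with at least 10 counts in every library, a filter that left neither Nr1d1 nor Dbp to test. In PFC the count of 1 became 0 with upper-quartile factors, 2 with the replicate block and with the libraries of the deposited variance-stabilised table, and 3 with date and plate. The 2 of the replicate block were Per3 and Dbp, so Per1 did not pass in PFC there. In PVN it was 2 with the replicate block and with date and plate. In dCA1 it was 2 with the replicate block and with RIN, and 3 with the dentate covariate. In dDG it was 2 with DESeq2, with date and plate, with the replicate block, without a filter and with the dentate covariate. In vCA1 the count of 2 became 1 with at least 10 counts in every library and with the dentate covariate. In vDG the count of 0 became 2 with the replicate block and 1 with date and plate. When 1 animal was left out, the count ran from 1 to 2 in AMY, PVN, dCA1 and dDG, from 1 to 3 in CER, from 0 to 2 in PFC and from 0 to 1 in vDG, and was 2 throughout in vCA1. The number of genes of all kinds called fell with at least 10 counts in every library, for which fewer genes were tested (AMY 292 for 484, CER 286 for 558, PFC 345 for 565, PVN 292 for 522, dCA1 235 for 408, dDG 188 for 316, vCA1 283 for 497, vDG 194 for 366). It was 543 for 316 in dDG with the replicate block and 291 for 497 in vCA1 with the dentate covariate, and the cause was not tested.

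Vehicle and dexamethasone animals share replicate numbers in the labels but are different animals. In the labels same-numbered libraries share the plate in 115 of 115 pairs and the date in 109, but a plate or date holds several numbers and no label says that the number itself marks a batch. Deviations of same-numbered libraries had a median correlation of 0.06 to 0.24 per region and exceeded 0.1 in 5 to 12 of 13 to 15 pairs, and 2 to 7 vehicle libraries per region correlated best with their own number. No label says that the numbers pair the animals, so the fits without the block were kept as the main ones. A block does not need every pair to correlate, so these values do not show that the libraries are unpaired. With the replicate block Dbp passed in 8 regions, Per3 in 4, Per1 in 3 (CER, PVN and vDG, but not PFC) and Nr1d1 in 1. Per2 then passed over the regions together (0.18, adjusted p 0.0101). The ratio of Per1 to Per3 then had an adjusted permutation p of 0.0576. Without the animal as a block, the interaction of Per3 had F = 4.50 (adjusted p 0.0138). The median of 12 counts per library for Cry1 limits what a single region can show for it.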
